A study of Mus musculus with 2 samples.

Results

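The vascular basement membrane genes examined were 10 genes taken by symbol from the 33696 genes counted, namely Col4a1, Col4a2, Lama4, Lama5, Lamb1, Lamb2, Lamc1, Nid1, Hspg2 and Sparcl1. They were taken by name, as genes of the sheet that surrounds a vessel and its assembly, with earlier results of these data known. All 10 were detected in blood endothelial cells of both libraries. There was a library for each of PyMT-M, classed as High-MAC (macrophage-enriched), and PyMT-N, classed as Low-MAC. These tumors were sublines derived from MMTV-PyMT mice, in which a mammary tumor virus promoter drives the polyoma middle T antigen. Both sublines were grown in the mammary fat pad of female C57BL/6 mice, the labels name no treatment, and each library pooled 3 tumors after depletion of CD45+ and Ter119+ cells and enrichment and sorting for the endothelial surface proteins CD31 and CD144. Each library was a droplet-based 10x Genomics 3′ library. A condition is thus 1 library of pooled animals. There is no replicate, no difference was tested, and every interval given is a 95% interval for counting error only.

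The vascular basement membrane is a thin sheet on the outer face of the endothelium, laid down by endothelial cells and, in many vessels, by pericytes as well. Its core is a network of type IV collagen and a polymer of laminins, each laminin being a trimer of an alpha, a beta and a gamma chain, and nidogen and the proteoglycan perlecan link these networks. Laminins with the alpha-4 chain are typical of the endothelium at large, whereas alpha-5 is found in a more restricted way along the vascular tree.

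Col4a1 and Col4a2 are encoded head to head on opposite strands, so that their 5′ ends meet in a shared stretch of DNA. That stretch is shown because the levels of both chains are compared throughout. It lies at chr8:11312801-11312830 (plus strand, GRCm38.p6, RefSeq), and the capitals mark the 22 bases that lie within the annotated 5′ ends of both genes, Col4a2 running to the right and Col4a1 to the left.

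Col4a1 and Col4a2: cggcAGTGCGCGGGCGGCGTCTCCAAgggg

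Lamb1 and Lamb2, the alternative beta chains, are shown next because they differed in opposite directions between the libraries. Of the 250 bases before each annotated start, the sequences are the part before the first annotated exon in that window. They lie on the plus strand, at chr12:31265043-31265233 for Lamb1 and chr9:108479612-108479735 for Lamb2 (GRCm38.p6, RefSeq). Capitals mark matches, on either strand, to GGGCGG (a GC box), CCAAT or TATAAA.

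Lamb1: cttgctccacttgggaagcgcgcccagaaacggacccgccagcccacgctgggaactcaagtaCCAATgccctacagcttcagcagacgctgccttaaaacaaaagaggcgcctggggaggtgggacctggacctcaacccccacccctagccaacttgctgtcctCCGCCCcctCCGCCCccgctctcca

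Lamb2: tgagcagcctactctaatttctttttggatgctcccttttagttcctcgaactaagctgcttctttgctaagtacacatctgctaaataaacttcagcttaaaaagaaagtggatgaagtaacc

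Over the whole 250 bases, annotated exon bases included, GC content was 62.0% for Lamb1 and 43.6% for Lamb2. These values were above 76.7% and 20.1% of the 32851 mouse promoters in the table, whose median was 52.4%. The Lamb1 window held 14 CpG dinucleotides and the Lamb2 window 3. Promoters of 7 of the 10 genes were in the table, while Lama4, Lamc1 and Sparcl1 were not. Of those 7, Lamb2 alone fell below the median GC content, and the others lay between 62.0% and 74.4%, Col4a1 being the highest. The 250 bases of Col4a1 lie within an annotated exon of Col4a2, and those of Col4a2 within an annotated exon of Col4a1. A GC box was found in Col4a2, Lama5, Lamb1, Nid1 and Hspg2 (32.7% of all promoters hold one) and CCAAT in Col4a1, Col4a2, Lamb1 and Nid1 (33.8%). TATAAA was found in none of the 7 (12.4%). These matches are a description of letters, not of factor binding.

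Barcodes with at least 200 genes and at most 10% mitochondrial unique molecular identifiers (UMIs, counted molecules) were kept, which left 6719 PyMT-M and 5607 PyMT-N cells with 139729636 and 114669155 UMIs and medians of 21262 and 18558 UMIs per cell. Of these, 589 PyMT-M and 1069 PyMT-N cells counted as blood endothelial (at least 5 UMIs of Pecam1, Flt1, Emcn and Kdr together), with median depths of 5202 and 12661 UMIs. The 20 and 207 lymphatic cells held Prox1, Mmrn1 or Reln, and the 45 and 54 fibroblasts were high in Col3a1. The cells picked as tumor, 4890 and 3297, held Krt8, Krt18 or Rhox5 and no Pecam1 or Flt1. The libraries are labelled endothelial, yet blood endothelial cells made up 8.77% of kept PyMT-M and 19.1% of kept PyMT-N cells, and the cells picked as tumor 72.8% and 58.8%. Blood endothelial, lymphatic and fibroblast cells held markers their rules had not used, at summed levels of 4252 and 4381 CPM (counts-per-million, relative to all UMIs of the class) for Cdh5, Esam, Cldn5, Egfl7, Tie1 and Erg in blood endothelial cells, 3404 and 12997 CPM for Lyve1, Flt4, Pdpn and Ccl21a in lymphatic cells and 24265 and 24568 CPM for Col1a1, Col1a2, Dcn, Lum and Pdgfra in fibroblasts, PyMT-M first. Ccl21a made up 1416 CPM of the lymphatic sum in PyMT-M and 11606 CPM in PyMT-N. Lyve1 was higher in PyMT-M (1449 against 456 CPM), Flt4 in PyMT-N (690 against 348 CPM), and the intervals of Pdpn overlapped. The cells picked as tumor held few such markers, since the mammary epithelial markers Epcam, Krt7, Krt19, Cldn7 and Cdh1 summed to 3.61 and 1.42 CPM. In the same cells 7 markers of pericytes and smooth muscle summed to 262 and 313 CPM and 5 fibroblast markers to 52.6 and 223 CPM. They are called keratin/Rhox5-positive cells here. The genes of their rule differed between the libraries. Krt8 stood at 268 and 809 CPM, Krt18 at 0.0663 and 1005 CPM and Rhox5 at 669 and 14.6 CPM, PyMT-M first. The class was thus picked through a different mix of genes in each library. Of all cell barcodes, 20 occurred in both libraries, 12 of them kept in both.

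The blood endothelial rule also took in cells that held few endothelial markers of the check list. In PyMT-N, 44 such cells (4.12%) had under 3 UMIs of Cdh5, Esam, Cldn5, Egfl7, Tie1 and Erg, and 43 of them held Ptprc, the CD45 gene of leukocytes. In PyMT-M there were 8 (1.36%), of which 3 held Ptprc. These 8 cells had 4878 CPM of Acta2 and 2661 CPM of Rgs5, genes of pericytes and smooth muscle. They also held 1706 CPM of Col4a1 and 205 CPM of Lamb2, the latter from 6 UMIs. Col4a1 stood at 8.59 CPM in the 44 cells against 4030 CPM in the other 1025 PyMT-N cells. The 581 and 1025 cells with at least 3 UMIs of those markers are called marker-positive below. Levels in the class are given by the rule, and the comparisons of the tumors, cell classes, chain pairs and thinned cells are repeated in marker-positive cells beside their results.

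In both tumors 9 of 10 members were more than 2-fold higher in blood endothelial than in keratin/Rhox5-positive cells. Of all ranked genes (at least 20 UMIs over both sides), 29.9% were in PyMT-M and 23.1% in PyMT-N. Both type IV collagen chains were several-fold lower in lymphatic than in blood endothelial cells, and Sparcl1 was close to undetected in lymphatic cells. Between the tumors, 9 of 10 members were lower in PyMT-M blood endothelial cells, by up to 1.58-fold, and Lamb2 alone was higher, by 1.81-fold. None of these differences between the tumors reached 2-fold. Of 13188 ranked genes, 6748 were lower in PyMT-M, and 5.29% were higher and 8.93% lower past 2-fold.

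**Figure D1:**
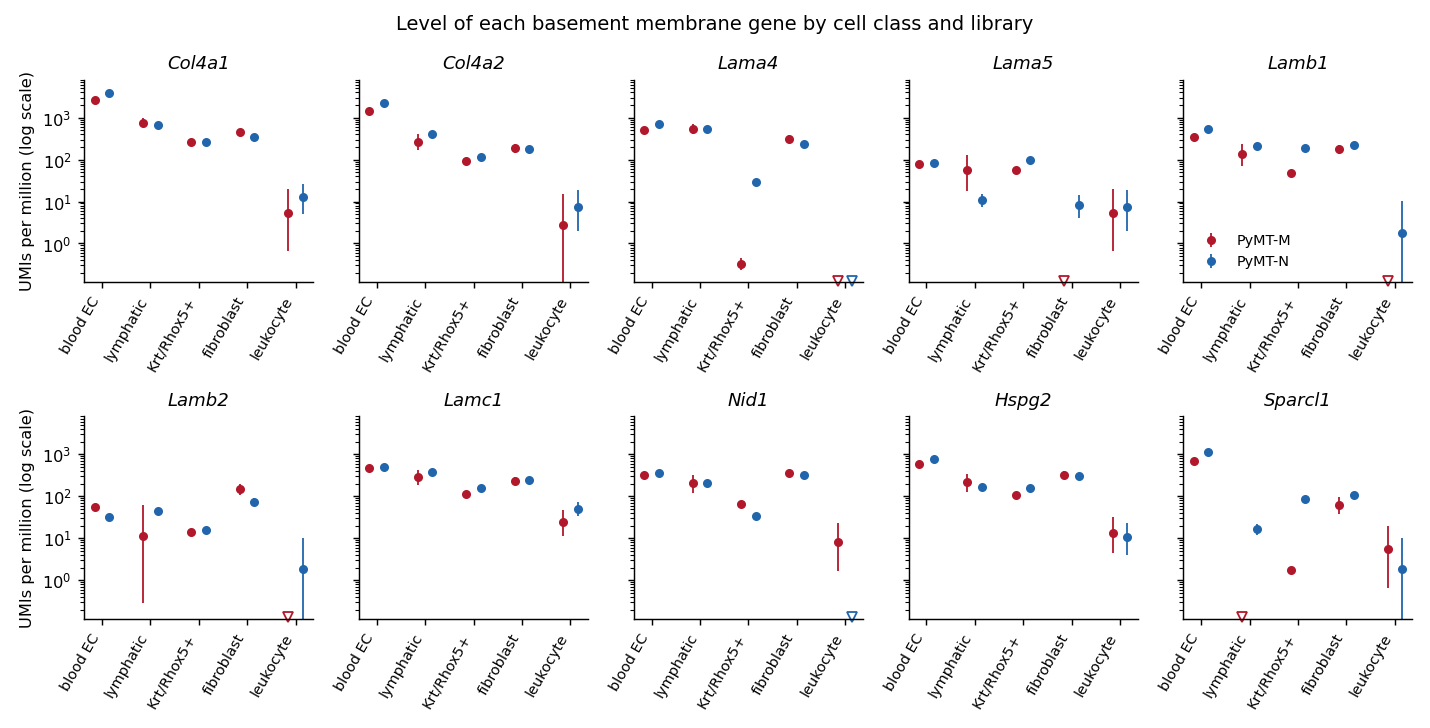
CPM (log axis) of each of the 10 genes, 1 panel a gene, in blood endothelial, lymphatic, keratin/Rhox5-positive, fibroblast and leukocyte cells of PyMT-M (red) and PyMT-N (blue), each point being 1 library with its 95% Poisson interval and open triangles marking no UMI. Blood endothelial cells have the highest point for Col4a1, Col4a2, Lamb1, Lamc1, Hspg2 and Sparcl1 in both libraries, and leukocytes stay at or below 50.5 CPM for every gene.

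Col4a1 (ENSMUSG00000031502) and Col4a2 (ENSMUSG00000031503) encode the chains of the collagen IV trimer found in nearly all basement membranes. In blood endothelial cells the Col4a1 level was 2694 CPM (2638 to 2750) in PyMT-M and 3780 CPM (3748 to 3811) in PyMT-N, 1.40-fold lower in PyMT-M. The Col4a2 level was 1403 CPM (1363 to 1444) in PyMT-M and 2221 CPM (2197 to 2245) in PyMT-N, 1.58-fold lower in PyMT-M. Neither pair of counting intervals overlapped. In keratin/Rhox5-positive cells Col4a1 stood at 258 CPM in PyMT-M and 261 CPM in PyMT-N, and Col4a2 at 92.9 and 115 CPM. The blood endothelial level was thus 10.4-fold and 14.5-fold that of the keratin/Rhox5-positive cells for Col4a1, and 15.1-fold and 19.4-fold for Col4a2, PyMT-M first. Both collagen chains were clearly present outside the vessels as well, and since keratin/Rhox5-positive cells were numerous and deep, they held 68.0% of all Col4a1 UMIs of the PyMT-M library and 21.5% of those of PyMT-N.

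Lymphatic vessels, whose capillaries have a thin and discontinuous basement membrane, held less of both chains. The 207 PyMT-N lymphatic cells had 681 CPM of Col4a1 (651 to 712), 5.55-fold below the blood endothelial level, and 399 CPM of Col4a2, 5.57-fold below. The 20 PyMT-M lymphatic cells had 764 CPM of Col4a1 (593 to 969) and 270 CPM of Col4a2 (173 to 401). Lymphatic levels of Col4a1 overlapped between the tumors within counting error. Fibroblasts held 456 CPM of Col4a1 in PyMT-M and 345 CPM in PyMT-N, and 184 and 176 CPM of Col4a2.

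Lama4 (ENSMUSG00000019846) encodes the laminin alpha-4 chain. Its blood endothelial level was 507 CPM (483 to 532) in PyMT-M and 707 CPM (694 to 721) in PyMT-N. Against keratin/Rhox5-positive cells it had the highest ratio of the members in both libraries. In PyMT-M keratin/Rhox5-positive cells it was nearly undetected, at 0.323 CPM (0.230 to 0.442), a log2 ratio of blood endothelial over keratin/Rhox5-positive cells of 10.62 (10.16 to 11.11). In PyMT-N those cells held 28.5 CPM, and the log2 ratio was 4.64. Lymphatic cells held 539 and 546 CPM, and the PyMT-N lymphatic level lay 1.30-fold below that of blood endothelium, unlike the several-fold gap of the collagen IV chains. Fibroblasts held 316 and 239 CPM, 1.61-fold and 2.96-fold below blood endothelium, so Lama4 was not restricted to endothelial cells.

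Lama5 (ENSMUSG00000015647), the alpha-5 chain, behaved differently from all other members in the class comparison. The blood endothelial level was 80.0 CPM (70.7 to 90.3) in PyMT-M and 81.9 CPM (77.4 to 86.6) in PyMT-N, with overlapping intervals. Keratin/Rhox5-positive cells held 56.5 CPM in PyMT-M and 96.7 CPM in PyMT-N, so the blood endothelial level was 1.42-fold higher in PyMT-M and 1.18-fold lower in PyMT-N. Keratin/Rhox5-positive cells held 86.0% of all Lama5 UMIs of PyMT-M and 70.7% of those of PyMT-N, as against 1.76% and 13% of Lama4 UMIs. In PyMT-N lymphatic cells Lama5 stood at 10.9 CPM, 7.49-fold below the blood endothelial level. The PyMT-M lymphatic level was 56.2 CPM from 5 UMIs, and its log2 ratio over blood endothelium, -0.51 (-2.15 to 0.73), had an interval that spanned 0. The 45 PyMT-M fibroblasts had 0 UMIs of Lama5, where 3 counts would be 9.37 CPM, and the PyMT-N fibroblasts had 8.15 CPM.

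Lamb1 (ENSMUSG00000002900) and Lamb2 (ENSMUSG00000052911) encode alternative beta chains. The Lamb1 level in blood endothelial cells was 345 CPM (325 to 366) in PyMT-M and 540 CPM (528 to 552) in PyMT-N, 1.56-fold lower in PyMT-M. The Lamb2 level was 57.0 CPM (49.1 to 65.8) in PyMT-M and 31.6 CPM (28.8 to 34.6) in PyMT-N, 1.81-fold higher in PyMT-M. Lamb1 was thus higher in the library where Lamb2 was lower, and neither pair of intervals overlapped. In keratin/Rhox5-positive cells Lamb1 stood at 47.5 and 188 CPM and Lamb2 at 14.4 and 15.7 CPM. Lamb2 was the member with the highest fibroblast level relative to blood endothelium, at 147 CPM in PyMT-M fibroblasts (2.58-fold above) and 74.9 CPM in PyMT-N fibroblasts (2.37-fold above). Lamb1 fibroblast levels were 175 and 221 CPM, below the blood endothelial level in both.

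Lamc1 (ENSMUSG00000026478) encodes the gamma-1 chain, which pairs with either alpha and either beta chain. The blood endothelial level was 477 CPM (454 to 501) in PyMT-M and 506 CPM (495 to 518) in PyMT-N, 1.06-fold apart. Keratin/Rhox5-positive cells held 115 and 156 CPM, lymphatic cells 281 and 389 CPM, and fibroblasts 231 and 248 CPM. Lamc1 was also the member with the highest leukocyte level, 24.3 CPM in PyMT-M and 50.5 CPM in PyMT-N.

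Nid1 (ENSMUSG00000005397) encodes nidogen-1, which binds laminin and collagen IV. Its blood endothelial level was 330 CPM (311 to 350) in PyMT-M and 350 CPM (341 to 360) in PyMT-N, with overlapping intervals. Fibroblasts held 359 and 323 CPM, so Nid1 was the member whose fibroblast level lay nearest to that of blood endothelium in both libraries (1.09-fold above in PyMT-M and 1.08-fold below in PyMT-N). Keratin/Rhox5-positive cells held 66.1 and 34.6 CPM, the higher level being in PyMT-M.

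Hspg2 (ENSMUSG00000028763) encodes perlecan, the heparan sulfate proteoglycan that also holds growth factors in the matrix. The blood endothelial level was 583 CPM (557 to 610) in PyMT-M and 757 CPM (743 to 771) in PyMT-N, 1.30-fold lower in PyMT-M. Keratin/Rhox5-positive cells held 109 and 159 CPM. PyMT-N lymphatic cells held 164 CPM, 4.60-fold below the blood endothelial level. Like the collagen IV chains, Hspg2 was lower in lymphatic than in blood endothelium. Its fibroblast levels, 322 and 310.5 CPM, were also lower, by 1.81-fold in PyMT-M and 2.44-fold in PyMT-N.

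Sparcl1 (ENSMUSG00000029309) encodes hevin, a secreted protein of the SPARC family that binds collagen and is not a structural chain of the sheet. The blood endothelial level was 706 CPM (678 to 736) in PyMT-M and 1113 CPM (1096 to 1130) in PyMT-N, 1.58-fold lower in PyMT-M. It separated the types of endothelium most widely, with 16.6 CPM (12.2 to 22.0) in PyMT-N lymphatic cells, 67.2-fold below the blood endothelial level. In the 20 PyMT-M lymphatic cells there were 0 UMIs, at least 21.0-fold below, with the lymphatic level set at 3 counts (33.7 CPM). Keratin/Rhox5-positive cells held 1.75 CPM in PyMT-M and 87.4 CPM in PyMT-N. Fibroblasts held 62.5 CPM and 108 CPM.

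Set against all genes, the endothelial bias of the members was wide. Of the 10, 9 were more than 2-fold higher in blood endothelial than in keratin/Rhox5-positive cells of PyMT-M, where 29.9% of the 15229 ranked genes (at least 20 UMIs over both sides) were higher and 15.8% lower by that much. The members' median log2 ratio was 2.64 and that of all ranked genes 0.25. In PyMT-N the count was again 9 of 10, where 23.1% of 15984 ranked genes were higher and 16.9% lower, with medians of 2.80 for the members and 0.10 for all. Lama5 was the exception in both libraries, at log2 0.50 (0.32 to 0.68) in PyMT-M and -0.24 (-0.33 to -0.15) in PyMT-N. PyMT-N lay below PyMT-M for Lama4, Lamb1 and Sparcl1 by the most, log2 4.64 against 10.62, 1.52 against 2.86, and 3.67 against 8.66. For Col4a1, Col4a2 and Nid1 the order was the opposite, 3.85 against 3.38, 4.27 against 3.92, and 3.34 against 2.32. With marker-positive cells as the blood endothelium, 9 of 10 were again past 2-fold, Lama5 standing at 0.50 and -0.15 and Lamb2 at 1.95 and 1.10, PyMT-M first. With totals that exclude hemoglobin, ribosomal-protein and mitochondrial genes, an alternative that lowers all PyMT-M ratios by 0.25, the order of the genes is the same by construction. Those genes made up 31.9% of the UMIs of keratin/Rhox5-positive cells in PyMT-M and 19.1% of those of blood endothelial cells.

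**Figure D2:**
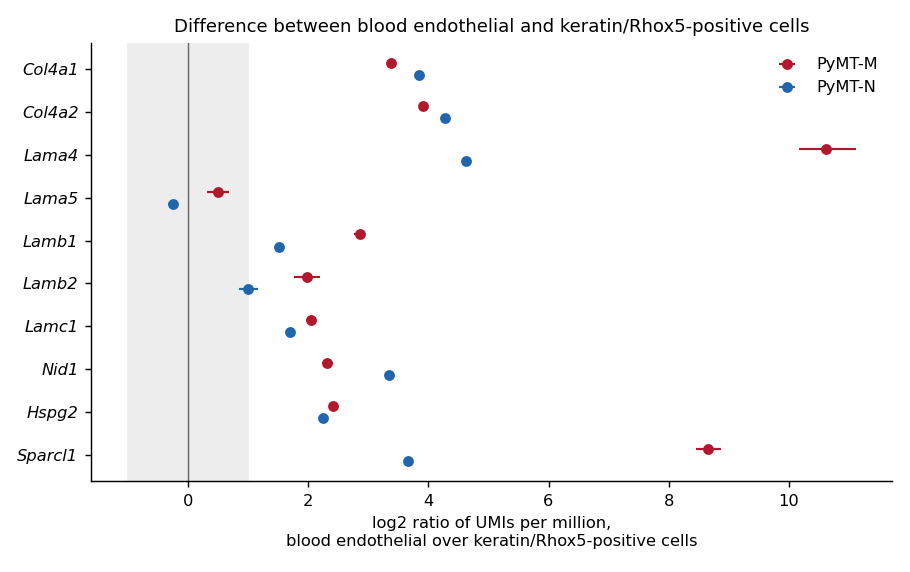
Log2 ratio of CPM, blood endothelial over keratin/Rhox5-positive cells, of the 10 genes in PyMT-M (red) and PyMT-N (blue), with 95% intervals for counting error. Each point but those of Lama5 lies above 1, the 2-fold line, Lamb2 in PyMT-N being just past it at 1.01, and Lama4 and Sparcl1 of PyMT-M lie farthest out at 10.62 and 8.66.

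Against the other stromal classes the pattern was more mixed. In PyMT-N lymphatic cells 6 of 10 members were lower than in blood endothelial cells by more than 2-fold (Col4a1, Col4a2, Lama5, Lamb1, Hspg2 and Sparcl1), where 11.5% of 13382 ranked genes were. Lamb2 was the member with a higher lymphatic level, 43.7 CPM against 31.6 CPM, log2 0.47 (0.17 to 0.76). Against marker-positive cells the same 6 were past 2-fold, from -1.47 (Lamb1) to -6.16 (Sparcl1), and Lamb2 was at 0.38 (0.08 to 0.67). In fibroblasts of PyMT-N 8 of 10 members were lower than in blood endothelium past 2-fold and 1, Lamb2, was higher past 2-fold. Of 13410 ranked genes, 21.8% and 13.8% were. In fibroblasts of PyMT-M 5 were lower past 2-fold (Col4a1, Col4a2, Lamc1, Sparcl1 and Lama5, the last from 0 UMIs). Lamb2 again was higher past 2-fold, where 24.5% and 11.3% of 10369 were lower and higher. Below 0 by any amount were 9 of 10 members in PyMT-N and 8 in PyMT-M. Collagen IV was thus lower in fibroblasts by 5.90-fold to 12.6-fold, whereas the cells defined by Col3a1 held Nid1 at about the endothelial level.

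Paired chains were compared by the share each took of the UMIs of the pair. A 3′ UMI count is not scaled by transcript length, but a share within a pair can be compared between classes. Lama4 made up 86.4% (84.8 to 87.9) of Lama4 and Lama5 UMIs in PyMT-M blood endothelial cells and 89.6% (89.1 to 90.2) in PyMT-N. In keratin/Rhox5-positive cells the share was 0.568% (0.405 to 0.776) in PyMT-M and 22.7% (21.9 to 23.6) in PyMT-N, so that Lama5 was the main alpha chain of the pair there. Col4a1 made up 65.8% (64.9 to 66.6) and 63.0% (62.7 to 63.3) of collagen IV UMIs in blood endothelial cells and 73.5% (73.1 to 74.0) and 69.5% (69.0 to 70.0) in keratin/Rhox5-positive cells. This share was higher in keratin/Rhox5-positive cells in both libraries. Lamb1 made up 85.8% (83.8 to 87.7) of the beta chain UMIs in PyMT-M blood endothelial cells and 94.5% (94.0 to 94.9) in PyMT-N. It was 76.8% and 92.3% in keratin/Rhox5-positive cells and 54.4% (44.3 to 64.2) and 74.7% (70.1 to 78.9) in fibroblasts. In each of these 3 classes the share was lower in PyMT-M. In lymphatic cells it was 92.3% (64.0 to 99.8) in PyMT-M, from 13 UMIs, and 82.6% (79.6 to 85.3) in PyMT-N, with overlapping intervals. In marker-positive cells the blood endothelial shares were 86.5% and 89.6% for Lama4, 65.7% and 63.0% for Col4a1 and 86.2% and 94.5% for Lamb1.

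**Figure D3:**
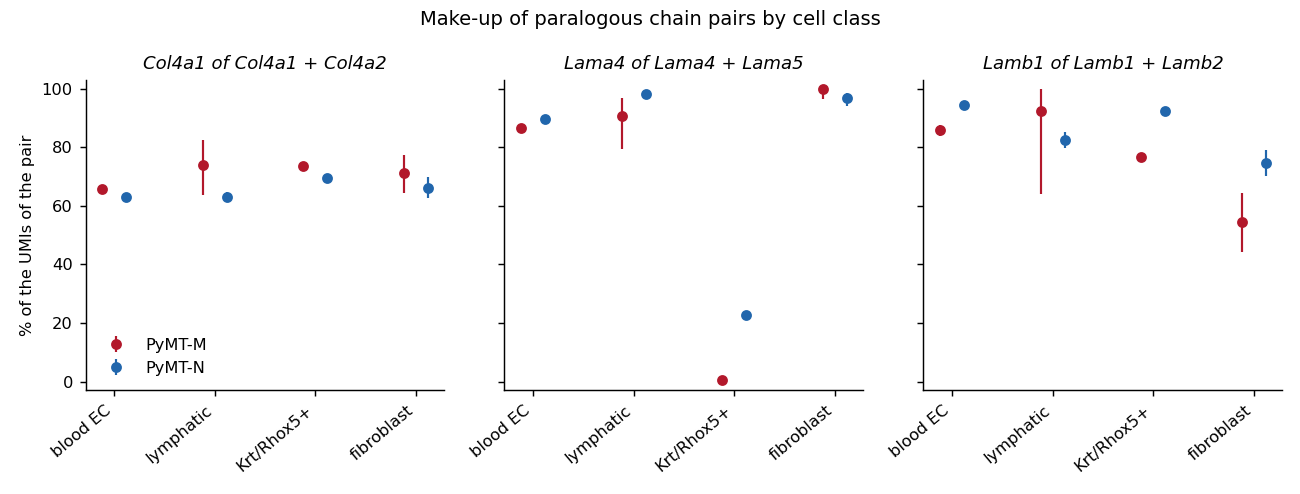
Percent of the UMIs of a pair that belong to its named chain (Col4a1 of Col4a1 and Col4a2, Lama4 of Lama4 and Lama5, Lamb1 of Lamb1 and Lamb2) in each cell class of PyMT-M (red) and PyMT-N (blue), with 95% Clopper-Pearson intervals. The alpha chain panel splits the classes, with 86.4% and 89.6% in blood endothelial cells against 0.568% and 22.7% in keratin/Rhox5-positive cells.

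The comparison of PyMT-M with PyMT-N asks whether blood vessels of High-MAC and Low-MAC tumors express their basement membrane differently. Of the 10 members, 9 had a log2 ratio below 0 in blood endothelial cells and the median was -0.43, while the median of all 13188 ranked genes was -0.01. From these same libraries the paper reports Sparcl1 and Col4a2, both members, as higher in PyMT-N endothelial cells. The count is therefore not independent of that result. None of the 10 was past 2-fold in either direction, where 5.29% of ranked genes were higher and 8.93% lower in PyMT-M. The collagen IV chains (-0.49 and -0.66), Lamb1 (-0.65), Sparcl1 (-0.66), Lama4 (-0.48) and Hspg2 (-0.38) made up the lower group, and their counting intervals lay below 0. Lamc1 (-0.09, -0.17 to -0.01), Nid1 (-0.09, -0.18 to 0.01) and Lama5 (-0.03, -0.23 to 0.16) lay nearer to 0. Lamb2 stood apart at 0.85 (0.60 to 1.10). With 1 library each, the spread between tumors of a subline is unknown and the subline cannot be told apart from the pool or the preparation.

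Without the cells that lacked endothelial check markers, the differences were as large or larger for the lower group. Among marker-positive cells the median was -0.51, and again none was past 2-fold. Col4a1 was at -0.58, Col4a2 at -0.75, Sparcl1 at -0.74, Lamb1 at -0.73, Lama4 at -0.56 and Hspg2 at -0.46. Lamc1 (-0.16, -0.24 to -0.09) and Nid1 (-0.17, -0.27 to -0.08) then lay below 0 beyond counting error, Lama5 was at -0.13 (-0.33 to 0.07), and Lamb2 was at 0.73 (0.47 to 0.98). Counting cells that also met another rule, mostly the lymphatic one, as blood endothelial gave 598 PyMT-M and 1243 PyMT-N cells and moved the median to -0.28. Markers of other cells in the blood endothelial class also differed, with the 7 pericyte and smooth muscle markers at 206 CPM in PyMT-M and 125 CPM in PyMT-N. Kcnj8 made up 117 CPM of the PyMT-N sum and 9.40 CPM of that of PyMT-M, and the other 6 summed to 197 CPM in PyMT-M and 8.56 CPM in PyMT-N, Acta2 standing at 118 and 1.74 CPM and Rgs5 at 50 and 2.88 CPM. In marker-positive cells the same 6 were at 122 and 8.35 CPM. The 5 fibroblast markers were at 23.9 and 3.81 CPM, and the leukocyte markers Cd52, Tyrobp and Lyz2 at 35.5 and 295 CPM. Without the cells that held at least 2 UMIs of those 6 pericyte markers, which leaves 579 and 1055, Lamb2 was at 0.78.

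**Figure D4:**
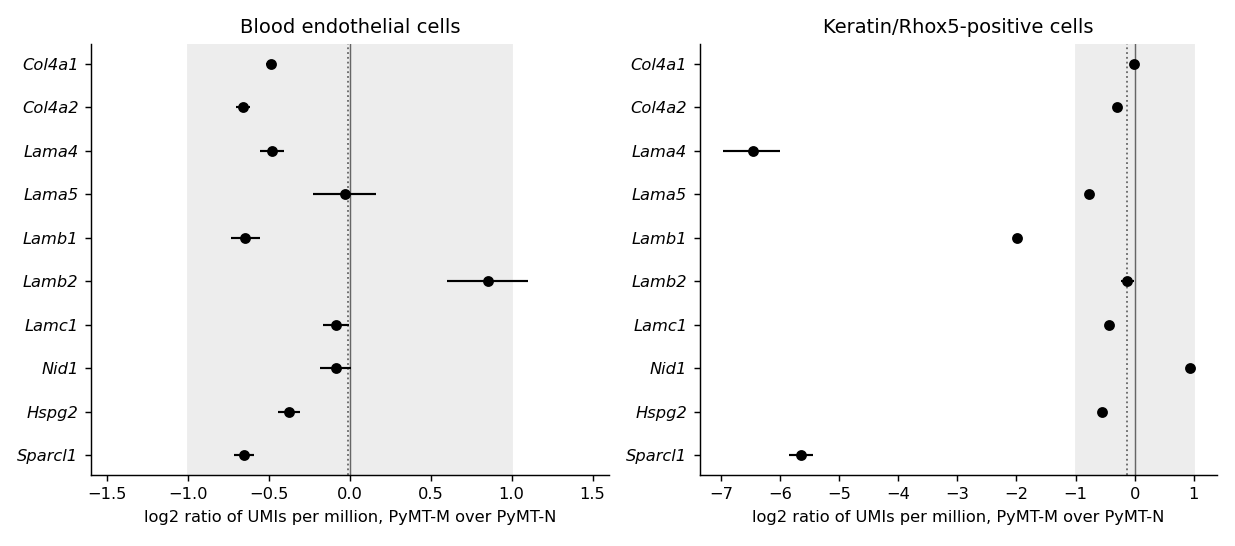
Log2 ratio of CPM, PyMT-M over PyMT-N, of the 10 genes in blood endothelial cells and in keratin/Rhox5-positive cells, with 95% intervals for counting error, a grey band within 2-fold and a dotted line at the median of all ranked genes. In blood endothelial cells each point lies within the band and 9 lie below 0, whereas Lama4 (-6.46), Sparcl1 (-5.64) and Lamb1 (-1.98) lie below the band in keratin/Rhox5-positive cells.

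In keratin/Rhox5-positive cells, picked mainly through Krt8 and Rhox5 in PyMT-M and through Krt8 and Krt18 in PyMT-N, 3 members differed between the tumors by far more than in blood endothelial cells. Lama4, Sparcl1 and Lamb1 were lower in PyMT-M by 88.1-fold, 50-fold and 3.96-fold, and these 3 of 10 were past 2-fold in that direction, where 27.7% of 16945 ranked genes were. None was higher past 2-fold, where 21.5% of ranked genes were, so the members' count is close to or below that of all genes. Nid1 was nearest on the higher side, with log2 0.94 (0.87 to 1.00), and Col4a1 was equal within counting error, at -0.02 (-0.04 to 0.01). In PyMT-N, Lama4 was detected in 30.3% and Sparcl1 in 46.6% of these cells, against 0.798% and 3.58% in PyMT-M. Markers of other cells differed there in both directions. All 5 fibroblast markers were higher in PyMT-N, Dcn standing at 75.2 against 0.141 CPM and Col1a1 at 86.8 against 17.6 CPM. Of the pericyte and smooth muscle markers, Pdgfrb (244 against 36.5 CPM), Notch3, Kcnj8 and Myh11 were higher in PyMT-N, Acta2 (223 CPM in PyMT-M against 50.6) and Cspg4 (2.44 against 1.26) were higher in PyMT-M, and the intervals of Rgs5 overlapped. Their part in the differences was not tested. Totals that exclude hemoglobin, ribosomal-protein and mitochondrial genes raise every ratio of this comparison by 0.20, which puts Col4a1 and Lamb2 above 0 and moves the members' median from -0.49 to -0.29.

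In fibroblasts, with 45 and 54 cells, 9 members could be ranked and none was past 2-fold, where 6.88% of 8245 ranked genes were higher and 14.1% lower in PyMT-M. Lamb2 had the highest log2 ratio there too, at 0.97 (0.44 to 1.49), and Sparcl1 the lowest, at -0.79 (-1.54 to -0.11). Col4a1, at 0.40 (0.12 to 0.67), lay on the other side of 0 from its blood endothelial value. The 7 pericyte and smooth muscle markers summed to 991 CPM in PyMT-M fibroblasts and 1862 CPM in PyMT-N fibroblasts. Rgs5 (159 against 0 CPM) and Kcnj8 (59.4 against 3.71 CPM) were higher in PyMT-M. Acta2 (1392 against 459 CPM) and Pdgfrb (416 against 278 CPM) were higher in PyMT-N. Fibroblast median depth was 7067 and 24094.5 UMIs, PyMT-M first. The part of these markers and of depth in the fibroblast values was not tested.

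The share of blood endothelial cells with a UMI showed how widely the members were shared by cells. Without thinning, Col4a1 was found in 97.3% of PyMT-M and 96.2% of PyMT-N cells and Lamb2 in 24.1% and 31.3%. Since median depth differed (5202 and 12661 UMIs), each cell was also thinned to 3000 UMIs, which 482 and 1062 cells allowed. Col4a1 was then found in 97.9% and 95.5%, Col4a2 in 95.6% and 95.1%, Sparcl1 in 79.0% and 87.9%, and Hspg2 in 75.1% and 85.4%. Lama4 was found in 65.4% and 78.4%, Lamb1 in 56.8% and 73.0%, Lamc1 in 66.4% and 72.7%, Nid1 in 58.5% and 59.6%, Lama5 in 22.4% of both, and Lamb2 in 16.0% and 10.8%. Lamb2 therefore had the larger share in PyMT-N before and in PyMT-M after thinning, the latter being the order of its level. In marker-positive cells (479 and 1019 thinned) Col4a1 was found in 98.3% and 99.5%, Lama4 in 65.8% and 81.6%, Lamb1 in 57.2% and 75.8%, Hspg2 in 75.6% and 89.0%, Sparcl1 in 79.3% and 91.7%, Lama5 in 22.5% and 23.4% and Lamb2 in 15.9% and 11.3%. In leukocytes, which should lack most of these genes and had median depths of 2148 and 4493 UMIs, the thinned shares ran from 0% to 4.76% in 42 PyMT-M cells and from 0% to 12.2% in 74 PyMT-N cells. The highest were Lamc1 and Hspg2 alike in PyMT-M and Lamc1 in PyMT-N.

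Marker-positive cells thinned to the same depth held a median of 7 of the 10 members in both libraries, and at least 5 members were found in 84.1% of 479 PyMT-M and 95.7% of 1019 PyMT-N cells. An alpha, a beta and the gamma chain of laminin were found together in 37.6% of the PyMT-M cells (33.2 to 42.1) and 55.6% of the PyMT-N cells (52.5 to 58.7). No marker-positive cell lacked all 10, whereas 2 and 32 cells of the unchecked class did. Col4a2 was found in 97.0% and 99.2% of the cells that held Col4a1, close to its 96.0% and 99.0% of all these cells. Only 8 and 5 cells lacked Col4a1, too few to show whether the chains go together. The mean was 8.42 and 12.4 Col4a1 UMIs per thinned cell, with a variance 3.07 and 2.57 times the mean, the highest such ratio of the 10 members in both libraries. Col4a1 also had the highest mean, on which this ratio depends, so the ratio does not rank the members by variability. For Sparcl1 the mean was 2.24 and 3.67 UMIs and the ratio of variance to mean 1.93 and 1.87.

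Blood endothelial cells were then split by markers of vessel states, in marker-positive cells, a cell having a state where its markers reached 3 UMIs and 300 CPM. These are ranges of 1 score and not types, and a cell can have several. Cycling cells (Mki67, Top2a, Cenpf and Birc5) showed the same direction in both libraries, with all 10 members lower than in other cells and medians of -0.46 in PyMT-M (93 of 581 cells) and -0.56 in PyMT-N (95 of 1025). In the same splits 53.4% of 9852 and 53.3% of 12256 ranked genes were lower, with medians of -0.05 in both. Sparcl1 stood at 471 CPM in cycling and 789 CPM in other PyMT-M cells, and at 829 and 1235 CPM in PyMT-N. Lama5 was at 50.3 and 89.4 CPM in PyMT-M and at 56.0 and 91.5 CPM in PyMT-N. No member was past 2-fold lower, where 6.60% of ranked genes were in PyMT-M and 8.50% in PyMT-N. Cycling cells were deeper, with medians of 8057 against 4566 UMIs for PyMT-M and 16348 against 12078 for PyMT-N.

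Tip cells lead new sprouts. Their markers (Esm1, Apln, Angpt2 and Cxcr4) were found in 47.2% of PyMT-M and 46.7% of PyMT-N cells, so the split is broad. Tip-marked cells were deeper, with medians of 6278 against 4166 UMIs for PyMT-M and 13286 against 11891 for PyMT-N. They had more of 8 of 10 members in both libraries, where 46.0% of ranked genes in PyMT-M and 40.5% in PyMT-N were higher. In PyMT-M, Lama4 stood at 628 CPM in tip-marked and 362 CPM in other cells, log2 0.79 (0.64 to 0.95), and Lamb1 at 408 and 269 CPM. In PyMT-N the Lama4 levels were 811 and 699 CPM, log2 0.21 (0.16 to 0.27). Lamb2 went the other way, with 44.2 CPM in tip-marked and 70.4 CPM in other PyMT-M cells and 30.6 and 36.7 CPM in PyMT-N, the interval of the PyMT-N ratio reaching 0.01. Lama5 was also lower in tip-marked cells, by less than its counting error.

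Cells with arterial markers (Gja5, Gja4, Sema3g, Bmx, Hey1 and Sox17) held more Lama5 and Lamb2 in both libraries. Of the 10 members 5 were higher in PyMT-M and 8 in PyMT-N, where 47.2% and 48.6% of ranked genes were. Lama5 stood at 134 CPM in arterial-marked and 72.4 CPM in other PyMT-M cells, log2 0.88 (0.42 to 1.33), and at 109 and 81.8 CPM in PyMT-N, log2 0.42 (0.23 to 0.61). Lamb2 stood at 83.2 and 51.9 CPM in PyMT-M and at 50 and 29.7 CPM in PyMT-N, log2 0.68 (0.09 to 1.23) and 0.75 (0.46 to 1.04). Sparcl1, at 958 against 677 CPM and 1340 against 1149 CPM, was higher in arterial-marked cells too. Lama4, Lamb1 and Lamc1 were not higher in them in PyMT-M, with log2 ratios of -0.31, -0.21 and -0.17.

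Venous markers (Selp, Sele, Ackr1 and Vwf) were found in 25.1% of PyMT-M and 72.1% of PyMT-N marker-positive cells, without thinning. Those cells had median depths of 5215 and 12477 UMIs under the same UMI minimum, so the shares do not compare composition at equal depth. The list includes Vwf, which the paper reports as higher in PyMT-N endothelial cells. By its own clustering the paper found PyMT-M enriched for venous endothelial cells. The part of depth and of Vwf in the shares was not tested. Median depth was 5269 UMIs with and 5169 without venous markers for PyMT-M cells and 12361 against 12972.5 for PyMT-N cells. All 10 members were higher in venous-marked PyMT-N cells (median log2 0.35), where 52.6% of ranked genes were (median 0.02), Lama5 the most at 97.7 against 61.5 CPM. In PyMT-M 4 of 10 were, where 48.9% of ranked genes were, and Lama4 was lower, at 376 against 557 CPM. Whether these ratios differ between the libraries was not tested. Capillary-marked cells (Gpihbp1, Cd36, Fabp4 and Cd300lg) had a median of 0.14 in PyMT-M and 0.21 in PyMT-N with 8 of 10 members above 0 in each, where 44.5% and 40.5% of ranked genes were, Sparcl1 being at 0.70 (0.46 to 0.94) and 0.33 (0.24 to 0.42). With the 44 PyMT-N cells poor in endothelial check markers included, the PyMT-N median was 1.10. Capillary-marked cells made up 86.6% of PyMT-M and 90.7% of PyMT-N marker-positive cells. Their median depth was 5416 against 3516.5 UMIs in other PyMT-M cells and 12734 against 9790 in other PyMT-N cells.

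**Figure D5:**
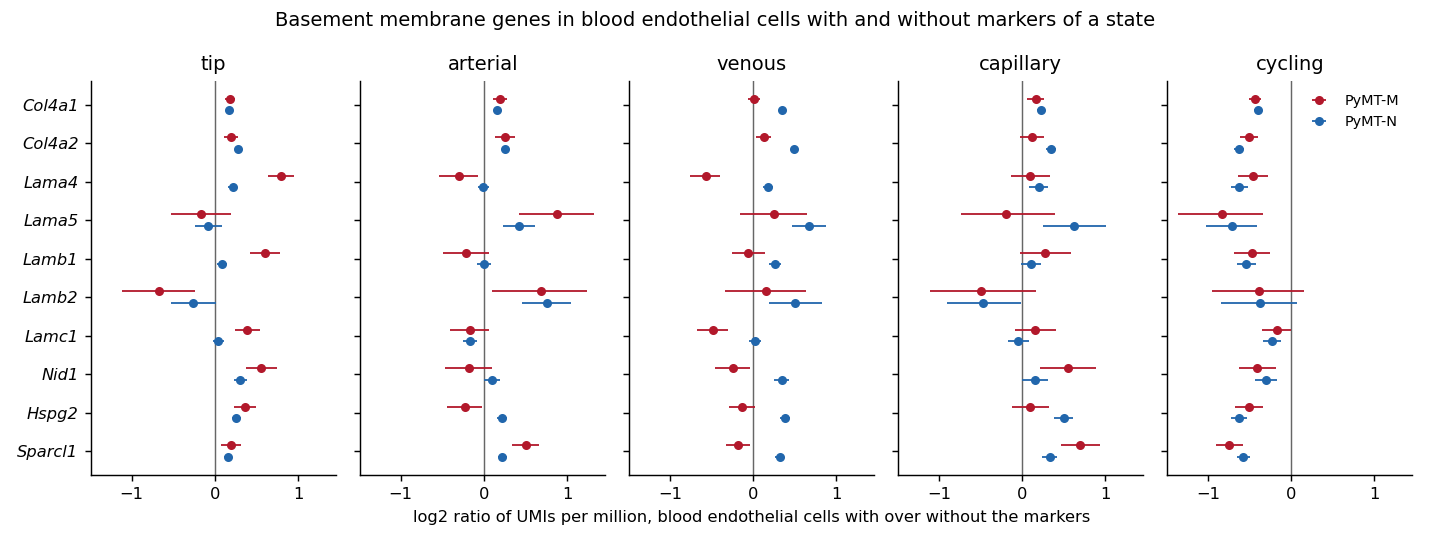
Log2 ratio of CPM of each of the 10 genes in blood endothelial cells with markers of a state over those without (tip, arterial, venous, capillary, cycling), among cells with at least 3 UMIs of endothelial check markers, PyMT-M in red and PyMT-N in blue, with 95% intervals for counting error. All points lie below 0 for cycling cells, and Lama5 and Lamb2 lie above 0 for arterial-marked cells in both libraries.

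Within each of these splits the PyMT-M level was below that of PyMT-N for 7 to 9 of the 10 members, with medians from -0.22 (cells without venous markers) to -0.66 (cells with them), while the medians of all ranked genes lay from -0.01 to 0.04. The splits divide the same marker-positive cells of the same libraries in different ways, so they do not repeat the comparison independently. Lama4 was lower past 2-fold in venous-marked cells, at -1.06, where 7.68% of ranked genes were, Lamb1 in cells without tip markers, at -1.05 (6.36%), and Sparcl1 in cells without capillary markers, at -1.07 (6.41%). Lamb2 was higher in PyMT-M in all 10 subsets, from 0.53 in tip-marked cells to 1.06 in cells without venous markers. The latter value was past 2-fold, where 4.80% of ranked genes were higher.

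The 43 other genes of the basement membrane, its synthesis and its receptors were counted beside the members. Of 13 other chains and components ranked in blood endothelial cells, 3 were higher and 2 lower in PyMT-M past 2-fold (median log2 -0.01), of 11 synthesis and cross-linking genes 1 and 0 (0.03), and of 8 receptors 3 and 0 (0.54). Among all 13188 ranked genes, 5.29% were higher and 8.93% lower by that much, with a median of -0.01. The lower levels in PyMT-M blood endothelium were thus seen in most members but not in these groups as a whole. This contrast is not independent of the choice of members, since the paper had reported Sparcl1 and Col4a2 as higher in PyMT-N endothelial cells. Lower levels in PyMT-M were not particular to the members. Of the endothelial check markers, Cdh5 (975 against 1158 CPM), Cldn5 (536 against 744), Tie1 (213 against 257) and Erg (134 against 189) were lower too. The intervals of Esam overlapped, and Egfl7 was higher in PyMT-M (1688 against 1297 CPM). Lama3, the alpha-3 chain of epithelial laminin, stood at 46.1 CPM in PyMT-M and 11 CPM in PyMT-N, log2 2.06 (1.73 to 2.39). Ntn4, a netrin that binds laminin gamma chains, was at 2.46 and the collagen cross-linking enzyme Loxl2 at 2.68, from only 28 and 17 UMIs in PyMT-M. Set against keratin/Rhox5-positive cells, the other chains and components did not share the members' endothelial bias in both libraries. Of 21 ranked for PyMT-N, 12 were lower past 2-fold in blood endothelial cells and 5 higher (median log2 -2.26). Among all ranked PyMT-N genes, 16.9% were lower and 23.1% higher by that much. Of 13 ranked for PyMT-M, 2 were lower and 8 higher (median 2.63). Among the related genes, Nid2, the paralog of Nid1, Col15a1 and Vwa1 were the most endothelial against keratin/Rhox5-positive cells. Nid2 stood at 258 CPM in blood endothelial and 0.174 CPM in keratin/Rhox5-positive cells of PyMT-M, and at 360 and 0.398 CPM in PyMT-N. Against keratin/Rhox5-positive cells Nid2 was thus far more endothelial than Nid1, with log2 ratios of 10.53 and 9.82 against 2.32 and 3.34.

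In the keratin/Rhox5-positive cells the groups of related genes differed from each other, beside the 27.7% of all ranked genes that were lower in PyMT-M past 2-fold and the 21.5% that were higher. Of 21 other chains and components 14 were lower and none higher (median -1.61), and of 10 receptors 5 were lower and none higher (median -1). Lama2, the alpha-2 chain of muscle and stromal laminin, stood at 0.0912 CPM in PyMT-M and 95.7 CPM in PyMT-N, Lamb3 at 0.0995 and 29.7 CPM, and Lamc3 at 0.0829 and 6.93 CPM. Of 12 synthesis genes 2 were higher and 2 lower (median 0.41), Loxl2 being at 85.1 CPM in PyMT-M and 1.07 CPM in PyMT-N and the prolyl hydroxylase subunit P4ha2 at 80.4 and 19.1 CPM.

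At the edge of the blood endothelial rule, cells with 3 to 4 UMIs of Pecam1, Flt1, Emcn and Kdr had 1331 CPM of Col4a1 in PyMT-M (44 cells) and 59.4 CPM in PyMT-N (60 cells). Those with 5 to 7 UMIs had 2021 CPM (41 cells) and 88.7 CPM (27 cells), and those with 8 or more had 2720 and 3891 CPM. The cells just inside the limit were thus poor in collagen IV in PyMT-N, and they held 29.6 CPM of Cdh5. In PyMT-M the 44 cells just outside the limit, with a median of 1981 UMIs, held 581 CPM of Cdh5 and 548 CPM of Sparcl1. The rule thus left out shallow PyMT-M cells that held endothelial Cdh5.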

How the data were processed

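Each library (PyMT-M, PyMT-N) was a pool of 3 tumors sequenced as a 10x Genomics 3′ library. For each barcode and gene the authors deposited whole-number UMI counts, not normalized. The submitters' processing notes name Cell Ranger 8.0.0 and mm39. The labels name collagenase I and the study's methods collagenase II and dispase II for dissociation.

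The members, gene lists and cell rules were chosen with earlier results of these data known. Kept barcodes had at least 200 genes and at most 10% mitochondrial UMIs. Classes were blood endothelial (Pecam1+Flt1+Emcn+Kdr at least 5 UMIs, Krt8+Krt18+Rhox5 at most 1), lymphatic (Prox1+Mmrn1+Reln at least 3), tumor, called keratin/Rhox5-positive (Krt8+Krt18+Rhox5 at least 3, Pecam1+Flt1 at 0), and fibroblast (Col3a1 at least 3000 CPM). Leukocytes, as background, had Ptprc+Laptm5+Coro1a of at least 5, at most 1 keratin/Rhox5 UMI and no Pecam1 or Flt1. Cells meeting the lymphatic and blood rules counted as lymphatic (8 in PyMT-M, 174 in PyMT-N). Cells meeting the fibroblast rule and another, or the tumor and lymphatic rules, and the 1030 and 885 cells of no class were left out of all classes. No doublet caller was run.

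UMIs were summed per class and library and given as CPM with exact Poisson intervals, ratios with an exact interval for 2 Poisson counts, and shares with exact Clopper-Pearson intervals, all at 95% and for counting error only. With 1 library per condition no test was made and no p-value computed. Genes with at least 20 UMIs over both sides were ranked and counted as past 2-fold at a log2 ratio of at least 1 or at most -1. A side with 0 UMIs was set at 3 counts. For shares of cells, each cell was thinned to 3000 UMIs. A state needed 3 UMIs and 300 CPM of its markers. Of 43 related genes, those named had the 3 highest or 3 lowest ratios past 2-fold with at least 10 UMIs on the lower side, and all 10 members and the cell markers are named. The scripts were tested on simulated data. Alternatives changed the cell rules, filters, depth, scaling, centring and count minimum, and 3 of them (pericyte, leukocyte and endothelial check markers) were chosen after seeing the data.

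Promoters were read from a RefSeq table of GRCm38.p6, another build than that of the counts. They hold 250 bases before each start, and the printed Lamb1 and Lamb2 stretches stop before the first exon of the GENCODE annotation in the window. The software was pandas 2.3.3, scipy 1.17.1 and numpy 2.4.6 in Python 3.11.15, with figures from matplotlib 3.10.9.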

Additional observations from a re-analysis of the deposited data

Results flagged for a closer look

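Lamb2, the laminin beta-2 chain gene, stood higher in PyMT-M than in PyMT-N by 0.85 on the log2 scale in blood endothelial cells whereas its log2 ratio was -0.13 in keratin/Rhox5-positive cells, with counting intervals on opposite sides of 0. With 1 library per condition the difference between the 2 cell classes was not tested. The negative value is small and turned positive under 2 of the 14 alternatives, given with the other processing results. No group held 4 or more libraries, so no library could be compared with others of its own condition.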

How the results depend on the processing

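No paired analysis was possible because each condition has 1 library, so the groups share fewer than 2 replicate numbers, and no result comes from a test. For the same reason no library could be left out. Over 14 alternatives, 555 of 560 values of single members kept their sign, although 158 of the 560 fell outside the counting interval of the reported value, and the count of members past 2-fold between PyMT-M and PyMT-N blood endothelial cells was 0 in each. Not all 560 values were free to change. Alternatives limited to blood endothelial cells leave the ratios between keratin/Rhox5-positive cells of the tumors as they were, and the count minimum changes no ratio. Lamb2 stayed above 0 between PyMT-M and PyMT-N blood endothelial cells, from 0.59 to 0.89, and Lama5 ran from -0.18 to 0.16. The members' median log2 ratio there, -0.43, was -0.28 with overlapping cells in each class, -0.52 with detected genes within 2-fold of the library median, -0.52 without any foreign marker UMI, -0.52 with under 2 leukocyte marker UMIs and -0.51 in marker-positive cells. The median of blood endothelial over keratin/Rhox5-positive cells in PyMT-N, 2.80, was 2.68 with overlapping cells, 2.85 with at least 10 marker UMIs, 2.89 without foreign markers, 2.69 after centring on all ranked genes, and 2.89 both with under 2 leukocyte marker UMIs and in marker-positive cells. In PyMT-M, 2.64 became 2.56 with detected genes within 2-fold of the median, 2.39 without mitochondrial, ribosomal and hemoglobin genes in the total and 2.39 after centring. The median of PyMT-M over PyMT-N in keratin/Rhox5-positive cells, -0.49, was -0.42 as a mean over cells, -0.29 without mitochondrial, ribosomal and hemoglobin genes, -0.37 after centring and -0.40 after thinning. Of single members in that comparison, Col4a1 turned to 0.19 and 0.11 (without those genes, and centred) and Lamb2 to 0.075 and 0.051 (without those genes, and thinned). The leaving out of those genes shifts a comparison by one constant. For the cell rules, the cause was not tested. The 20 PyMT-M lymphatic cells hold 89004 UMIs in all, which limits every value from them.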
